A study of Mus musculus with 6 samples.

Results

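The genes described here are 9 genes of early B lymphocyte development, namely Ighm, Cd79a, Cd79b, Vpreb1, Vpreb3, Igll1, Rag1, Ebf1 and Pax5, which were taken by their symbols from the 52550 genes listed in the data. They were measured in cells sorted for green fluorescent protein (GFP) out of livers of CD-1 mouse embryos of the genotype Sox9-GFP, with no treatment and with the same transgene in every library. Sox9 marks the cholangiocytes, the epithelial cells that line the bile ducts. Each stage, E16.5 and E18.5 (embryonic days 16 and 18 in the sample labels), had 3 libraries with the letters A, B and C, and 15 livers were pooled for each library. Livers were dissociated with collagenase and dispase, cells carrying blood cell surface antigens, among them CD45R (the B220 antigen of B cells), were removed magnetically, and GFP+ cells were then collected by flow cytometry. Total RNA was sequenced with a strand-specific kit. Transcripts of B lineage genes in these libraries are therefore what was present after a step that removes cells with B220.

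Fetal liver is a site of blood formation before birth, and B lymphocytes arise in it from hematopoietic progenitors. In the progenitors, the transcription factors EBF1 and PAX5 establish the B cell program, and the RAG recombinase joins the gene segments of the immunoglobulin heavy chain. The µ heavy chain encoded by Ighm then pairs with a surrogate light chain made of VpreB and λ5 proteins, and the complex signals through CD79A and CD79B as the pre-B cell receptor (pre-BCR).

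All 9 genes were detected in each of the 6 libraries, and all were low at E16.5. Their summed level was 13.9, 15.1 and 13.8 TPM (transcripts per 1000000) in E16.5 replicates A, B and C, and 37.8, 65.8 and 33.7 TPM in those of E18.5. TPM, the unit of the deposited values, relates a gene's reads to its length and to the sum of its library. The E18.5 sums all lay above the E16.5 sums, with replicate B of E18.5 well above its 2 partners. On mean TPM, the 9 genes at E16.5 lay above between 32.6% (Pax5) and 46.4% (Vpreb3) of the 21819 protein-coding genes listed, and at E18.5 above between 39.6% (Rag1) and 65.1% (Ighm). These are bulk libraries, in which a change in the number of cells of a type and a change in the RNA per cell cannot be told apart.

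**Figure D1:**
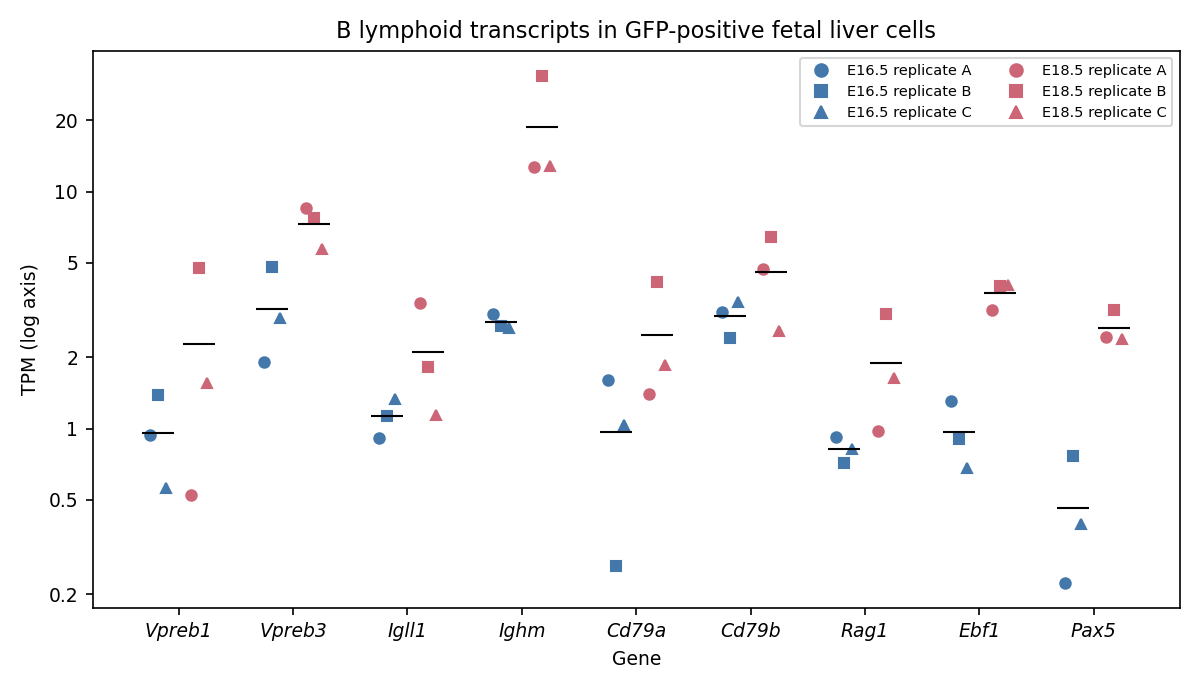
TPM (log axis) of each of the 9 B lymphoid genes in each library, with circles, squares and triangles for replicates A, B and C, blue for E16.5, red for E18.5 and a bar for the mean of the 3 libraries of a stage. Ighm, Vpreb3, Rag1, Ebf1 and Pax5 had all E18.5 points above all E16.5 points, and the square of E18.5 replicate B was the highest E18.5 point for 6 of the 9 genes.

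The labelled cell type was checked against marker genes. The 10 cholangiocyte markers summed to between 962 and 2902 TPM at E16.5 and to between 8683 and 14785 TPM at E18.5, led by Spp1 and Cdh1, while 10 hepatoblast markers led by Alb and Afp summed to between 161913 and 203807 TPM and then to between 37116 and 86904 TPM. Recovered reads per library ran from 13093937 to 26206374, and every E18.5 library was shallower than every E16.5 library. The 8 genes whose reads could be recovered had between 3 and 296 reads in a library, and 47 of their 48 values lay above 3 reads, which corresponded to between 0.0359 and 0.860 TPM. Of all 54 values, 14 were under 1 TPM, 12 of them at E16.5 and 2 at E18.5. Reads and intervals derived from them cover counting error only. Nothing in the sources ties the libraries to separate litters, so p-values measure the spread between these libraries, which may be technical.

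The stages were compared with limma on log2(TPM + 1), with p-values adjusted over all 22452 genes tested (mean of at least 1 TPM), and a gene was called at an adjusted p under 0.05. All 9 genes passed the filter, and 4 of the 9 were called, all of them higher at E18.5. These were Ighm, Vpreb3, Ebf1 and Pax5. Over all genes tested, 31.2% were called in either direction, 26.0% were called higher and 1172 of 22452 were called lower. The E18.5 values lay wholly above the E16.5 values for 5 of the 9 genes and for 45.0% of all genes tested. The median log2 fold change was 0.80 over the 9 genes and 0.42 over all genes tested, so the whole table was shifted toward E18.5. Scaling the libraries by the median of ratios moved the latter median to 0.01, and the share of called genes that were higher went from 83.3% to 38.1%. On that scale, 3 of the 9 genes (Ighm, Ebf1 and Pax5) were called higher, against 6.44% of all genes, and the median of the 9 was 0.53, with all 9 above 0. An exact permutation test of a single gene cannot give a two-sided p under 0.1 with 3 libraries against 3.

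**Figure D2:**
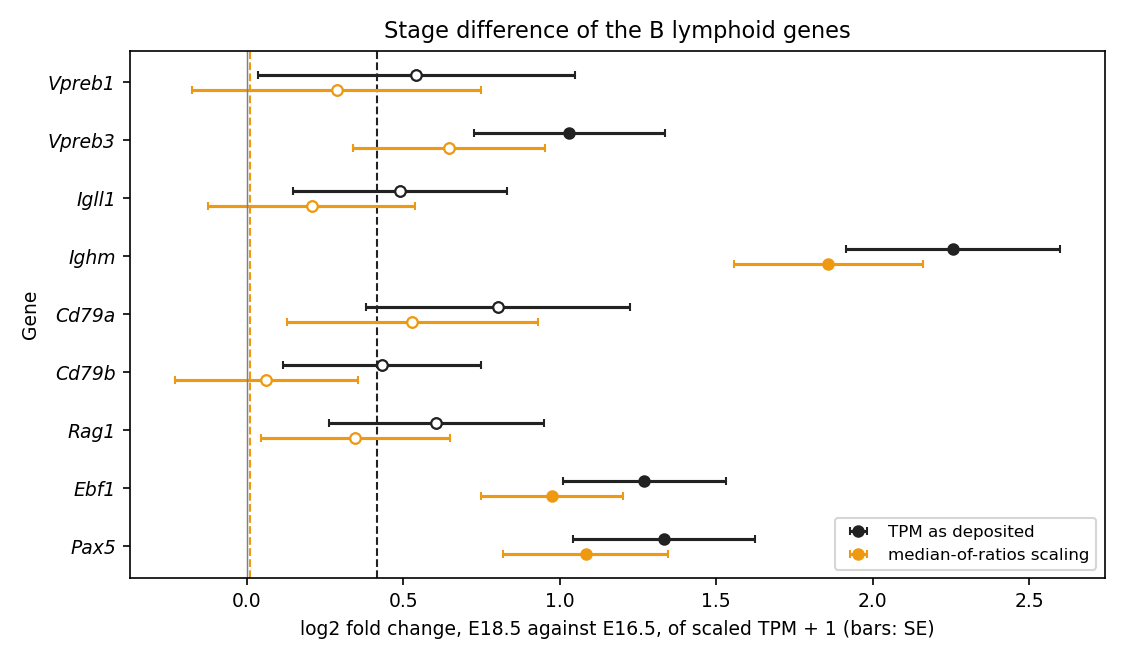
Log2 fold change of TPM + 1 at E18.5 against E16.5 (bars show the standard error) for each of the 9 genes, with the TPM as deposited in black and after median-of-ratios scaling in orange; filled points had an adjusted p under 0.05 in limma, and dashed lines mark the median of all genes tested on each scale (0.42 and 0.01). The point estimate was above 0 for all 9 genes on both scales, and Ighm lay farthest to the right.

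The surrogate light chain is made of the products of Vpreb1 and Igll1, the latter known as λ5, and Vpreb3 encodes a related protein that associates with µ chains inside the cell. Vpreb3 (ENSMUSG00000000903.3) lies on the forward strand of chr10:75943057-75949657 in GRCm38, Igll1 (ENSMUSG00000075370.10) on the reverse strand of chr16:16860671-16863985, and Vpreb1 (ENSMUSG00000059305.10) close to it on the reverse strand of chr16:16868403-16870843. Promoter sequences of RefSeq, from 250 bases before to 50 bases after a start site, were found for 7 of the 9 genes, and those of Vpreb3, Igll1 and Cd79a are shown as examples that hold matches to motifs of B cell factors. Capitals mark the matches to the octamer ATTTGCAT, bound by POU factors, the E box CAGNTG, bound by E proteins such as the product of Tcf3, and CCCNNGGG, a core of the sites bound by EBF1, all searched on both strands of GRCm38. Each is written 5′ to 3′ along the gene.
Vpreb3 promoter (chr10:75948050-75948349, forward strand): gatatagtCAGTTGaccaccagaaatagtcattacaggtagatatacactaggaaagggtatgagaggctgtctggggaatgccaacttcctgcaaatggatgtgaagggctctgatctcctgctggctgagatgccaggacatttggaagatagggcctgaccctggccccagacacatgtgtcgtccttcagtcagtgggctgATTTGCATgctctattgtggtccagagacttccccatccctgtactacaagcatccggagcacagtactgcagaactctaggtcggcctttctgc
Igll1 promoter (chr16:16863936-16864235, reverse strand): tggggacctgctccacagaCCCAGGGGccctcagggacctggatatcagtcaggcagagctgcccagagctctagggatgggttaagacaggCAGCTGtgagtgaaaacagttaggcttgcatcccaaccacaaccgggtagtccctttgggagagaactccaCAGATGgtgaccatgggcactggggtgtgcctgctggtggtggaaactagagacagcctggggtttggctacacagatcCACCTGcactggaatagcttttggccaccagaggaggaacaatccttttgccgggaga
Cd79a promoter (chr7:24897247-24897546, forward strand): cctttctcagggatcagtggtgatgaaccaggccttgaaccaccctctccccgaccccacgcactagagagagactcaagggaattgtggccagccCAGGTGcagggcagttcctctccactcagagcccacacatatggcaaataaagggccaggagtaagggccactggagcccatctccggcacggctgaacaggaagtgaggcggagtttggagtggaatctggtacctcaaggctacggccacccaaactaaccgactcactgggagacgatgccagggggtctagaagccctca
The octamer of Vpreb3 began at base -45 from the start site. In Igll1 the EBF-type match began at -231 and E boxes began at -158, -87 and -8, and in Cd79a an E box began at -154. Among the 7 genes with a promoter, 1 held the octamer, 5 an E box and 1 the EBF-type match, against 1.74%, 51.4% and 13.7% of the 32851 mouse promoters in the same set. A match is a description of the letters in the window, and its absence says nothing of the factor.

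Vpreb3 was the highest of the 3 at both stages on mean TPM. Its level was 1.90, 4.78 and 2.92 TPM in E16.5 replicates A, B and C and 8.51, 7.74 and 5.73 TPM in those of E18.5, from 14 to 32 reads and from 20 to 50 reads per library. All E18.5 values lay above all E16.5 values, and the mean went from 3.20 ± 1.46 to 7.33 ± 1.43 TPM (SD, n = 3). Vpreb3 rose with a log2 fold change of 1.03 (SE 0.30, limma adjusted p = 0.0415). Of the 4 calls it was kept in the fewest settings. It was lost in 10 of 13 other settings, with an adjusted p between 0.0523 and 0.265, among them median-of-ratios scaling (log2 fold change 0.65, adjusted p = 0.194).

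Igll1 stood at 0.916, 1.13 and 1.33 TPM at E16.5 and at 3.38, 1.81 and 1.14 TPM at E18.5, and the stages overlapped because replicate C of E18.5 lay inside the E16.5 range. Its log2 fold change was 0.49 (SE 0.34, limma adjusted p = 0.289). Vpreb1 stood at 0.943, 1.38 and 0.563 TPM and then at 0.525, 4.75 and 1.55 TPM. The lowest and the highest of the 6 Vpreb1 values were thus both from E18.5, replicates A and B, and the log2 fold change of 0.54 had an SE of 0.51 (limma adjusted p = 0.424). Neither gene was called in any setting tried. Of the Vpreb1 exon sequence, 9.01% is shared with Top3b on the opposite strand, and the sources used here do not state the strand setting of the counting.

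Vpreb1 has a near-identical copy, Vpreb2, elsewhere on chromosome 16. Their coding sequences are 97.9% identical (9 mismatches in 426 bases), whereas Vpreb1 and Vpreb3 are 48.2% identical over their alignment. A stretch of 150 coding bases, from base 238 to base 387, holds 6 of the 9 mismatches and is shown because only reads that cover such a base can tell the copies apart. It is taken from GENCODE vM21 transcripts, and capitals mark the mismatches.
Vpreb1 (chr16:16868638-16868787, reverse strand): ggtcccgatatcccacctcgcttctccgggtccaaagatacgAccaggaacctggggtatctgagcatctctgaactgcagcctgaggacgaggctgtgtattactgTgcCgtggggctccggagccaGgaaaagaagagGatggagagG
Vpreb2 (chr16:17980889-17981038, forward strand): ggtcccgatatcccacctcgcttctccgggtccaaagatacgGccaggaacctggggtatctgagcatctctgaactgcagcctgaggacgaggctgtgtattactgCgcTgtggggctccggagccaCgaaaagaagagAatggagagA
A read common to both copies may have been discarded or given to either, and the division between Vpreb1 and Vpreb2 is uncertain. Vpreb2 was listed at 0, 1.2 and 0.292 TPM at E16.5 and at 1.36, 1.37 and 0.574 TPM at E18.5, under the filter on the mean, so it was not tested.

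Ighm, which encodes the constant region of the µ heavy chain (ENSMUSG00000076617.9, reverse strand of chr12:113418558-113422730), had the largest log2 fold change of TPM + 1 among the 9 genes, although in limma voom on recovered reads that of Pax5 was larger (2.56 against 2.45). It stood at 3.03, 2.72 and 2.66 TPM in E16.5 replicates A, B and C and at 12.7, 30.7 and 12.8 TPM in those of E18.5. The E16.5 values were close to each other, with from 40 to 49 reads, whereas the E18.5 values had from 98 to 296 reads and were highest in replicate B. Ighm rose from 2.80 ± 0.199 to 18.7 ± 10.4 TPM (SD, n = 3), with a log2 fold change of 2.26 (SE 0.34, limma adjusted p = 0.0104). The log2 fold change without E18.5 replicate B was 1.86 (adjusted p = 0.0150). Over all 13 other settings it lay between 1.85 and 2.57, with an adjusted p between 0.00691 and 0.0372. Summed over the libraries of a stage, Ighm had 129 reads at E16.5 and 558 at E18.5, which scaled to the depth of each stage is a ratio of 5.97 with a 95% exact interval from 4.92 to 7.29. That interval covers counting error only and leaves out the spread between libraries.

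Of 7 other immunoglobulin genes (constant regions, the J chain gene and Vpreb2), only Igkc passed the filter on the mean. Igkc, the constant region of the κ light chain that replaces the surrogate light chain later in development, stood at 0.438, 0.241 and 0 TPM at E16.5 and at 4.95, 11.8 and 2.31 TPM at E18.5. All E18.5 values lay above the E16.5 values, which together rested on 3 reads, against 55 at E18.5. Scaled to depth, the ratio was 25.3, with a 95% exact interval, for counting error only, from 8.22 to 126. Igkc rose with a log2 fold change of 2.38 (SE 0.50, limma adjusted p = 0.0177), a call that was lost only without replicate A of E18.5 among 12 other settings (adjusted p = 0.0585). The λ constant genes were at or near 0. Iglc2 was listed at 0 in every library, Iglc1 in all E18.5 libraries, and the mean of Iglc3 was 0.258 ± 0.447 TPM and then 0.144 ± 0.25 TPM (SD, n = 3). Ighd, which encodes the δ heavy chain of mature B cells, had 0.552, 0.337 and 0 TPM and then 1.23, 0.618 and 0.130 TPM, with overlapping stages.

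The annotated segments of the immunoglobulin loci gave a further view of the same transcripts. The 13 constant segments together took 3.05, 2.72 and 1.79 reads per 1000000 recovered reads in E16.5 replicates A, B and C. In those of E18.5 they took 9.32, 20.9 and 8.25, so the stages did not overlap. Ighm is among them and gave 49 of 80, 40 of 63 and 40 of 42 of their reads at E16.5. At E18.5 it gave 164 of 211, 296 of 357 and 98 of 108, so this sum largely repeats Ighm. The 218 variable segments took 7.86, 5.91 and 3.45 reads per 1000000 and then 5.87, 13.8 and 5.12, so the stages overlapped and replicate B of E18.5 was again the highest. Reads in variable segments were spread thinly, over 60, 62 and 39 segments at E16.5 and 55, 96 and 36 at E18.5. The 14 joining segments had from 0 to 11 reads in a library at E16.5 and from 8 to 19 at E18.5, and the 19 diversity segments at most 3. Segment genes are short and similar to each other, and their reads were not tested.

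**Figure D3:**
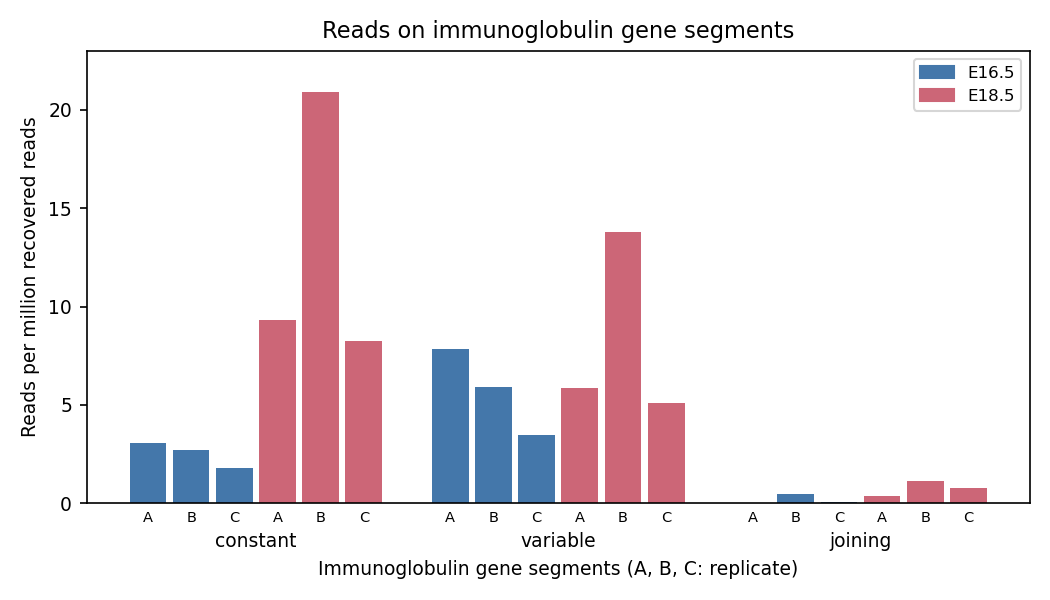
Reads per 1000000 recovered reads on the annotated constant, variable and joining segments of the immunoglobulin loci, one bar per library (A, B and C are the replicates, blue E16.5, red E18.5). Constant segments, which include Ighm, were higher in every E18.5 library than in every E16.5 library, whereas variable segments overlapped between the stages.

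CD79A and CD79B form the signalling pair of the pre-BCR and of the B cell receptor (BCR). Cd79a (ENSMUSG00000003379.7) lies on the forward strand of chr7:24897381-24902197, and its promoter is shown above. It stood at 1.60, 0.264 and 1.03 TPM at E16.5 and at 1.40, 4.16 and 1.86 TPM at E18.5. Replicate A of E18.5 lay under the highest E16.5 value, and the value of E16.5 replicate B rested on 3 reads. The log2 fold change of Cd79a was 0.80 (SE 0.42, limma adjusted p = 0.173). Cd79b (ENSMUSG00000040592.11, reverse strand of chr11:106311341-106314762) stood at 3.10, 2.42 and 3.42 TPM and then at 4.70, 6.43 and 2.58 TPM. Replicate C of E18.5 fell within the E16.5 range, and the log2 fold change was 0.43 (SE 0.32, limma adjusted p = 0.312), close to the median of all genes tested. It was 0.06 under median-of-ratios scaling and -0.01 under quantile normalization, the only change of sign among the 9 genes. Neither gene of the pair was called in any setting.

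The levels of the receptor genes within a stage could be ordered per length by TPM. At E16.5 the means of Vpreb3 (3.20 TPM), Cd79b (2.98 TPM) and Ighm (2.80 TPM) lay within the spread of Vpreb3 and above those of Igll1, Cd79a and Vpreb1 (1.12, 0.966 and 0.963 TPM), whose ranges overlapped each other. At E18.5 Ighm was highest with every library above every value of the other 8 genes. Next came Vpreb3 and Cd79b, with overlapping ranges, and then Ebf1, Pax5, Cd79a, Vpreb1, Igll1 and Rag1, whose means lay between 1.89 and 3.73 TPM.

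A list of 15 genes of pre-BCR and BCR signalling did not move as a group. Of the 11 tested, 2 were called higher and 5 lower at E18.5, with a median log2 fold change of -0.84. Over all genes tested, 26.0% were called higher and 1172 of 22452 lower. Pik3ap1, which encodes an adaptor of phosphoinositide 3-kinase, rose from 141 ± 28.2 to 258 ± 27.8 TPM (SD, n = 3, log2 fold change 0.88, limma adjusted p = 0.0154), although not under median-of-ratios scaling, where no gene of the list was called higher and 6 were called lower. Blk and Fcrla, which B cells express, had log2 fold changes of 0.99 and 1.05 and were not called (limma adjusted p = 0.0833 and 0.0726), while Cd22, Cd72, Blnk and Bank1 were under the filter.

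The 5 genes called lower were the kinases Btk, Syk and Lyn, the phospholipase gene Plcg2 and the exchange factor gene Vav1, which act in the BCR pathway and in several other blood lineages. Btk stood at 82.7, 48.7 and 131 TPM at E16.5 and at 5.15, 14.4 and 6.41 TPM at E18.5, levels well above those of any of the 9 B lymphoid genes at E16.5. Btk fell by 3.20 on the log2 scale (limma adjusted p = 0.00890), Syk by 3.17 (0.00945), Plcg2 by 2.75 (0.0122), Vav1 by 2.68 (0.0144) and Lyn by 1.05 (0.0236). The calls of Btk, Syk and Plcg2 held in 13 of 13 other settings and that of Vav1 in 12, whereas that of Lyn was lost in 5, namely with the replicate block and without E16.5 replicate A or C or E18.5 replicate A or C. All 10 genes of a megakaryocyte list, led by Pf4 and Ppbp, were also called lower, with a median log2 fold change of -4.32. Their summed level was between 3332 and 9646 TPM at E16.5 and between 92.9 and 769 TPM at E18.5, and as for Btk it was highest in replicate C at E16.5 and in replicate B at E18.5. The part of the megakaryocyte transcripts in the fall of the 5 signalling genes was not tested.

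RAG1 is a subunit of the recombinase that cuts immunoglobulin and T cell receptor genes. Rag1 (ENSMUSG00000061311.6, reverse strand of chr2:101638282-101649501) stood at 0.918, 0.718 and 0.816 TPM at E16.5 and at 0.973, 3.05 and 1.64 TPM at E18.5. The stages did not overlap, but replicate A of E18.5 was only slightly above the highest E16.5 value, and the log2 fold change of 0.61 (SE 0.34) was not called (limma adjusted p = 0.203). Its 132 reads at E16.5 and 191 at E18.5 made it better covered than the smaller receptor genes at similar TPM, since it has 6608 bp of exon sequence. Of this, 1.21% is shared with B230118H07Rik on the same strand.

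Of 9 other genes of V(D)J recombination and end joining, 7 were tested, and 1 was called higher (against 26.0% of all genes) and none lower. This was Dclre1c, which encodes the Artemis nuclease that opens the hairpin ends left by RAG, at 5.99 ± 0.237 and 9.62 ± 0.555 TPM (SD, n = 3, log2 fold change 0.60, limma adjusted p = 0.0324), and under median-of-ratios scaling it was not called (0.19, adjusted p = 0.368). The median of the 7 was 0.29, below that of all genes tested. Rag2, the partner of Rag1, was under the filter with 0.290 ± 0.106 and 0.439 ± 0.344 TPM, as was Dntt, which adds untemplated nucleotides at the joints, with 0.295 ± 0.322 and 0.345 ± 0.207 TPM (SD, n = 3).

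EBF1 and PAX5 are the factors that specify and then commit cells to the B lineage. Ebf1 (ENSMUSG00000057098.14, forward strand of chr11:44617317-45008091) stood at 1.31, 0.907 and 0.681 TPM in E16.5 replicates A, B and C and at 3.15, 3.99 and 4.04 TPM in those of E18.5. Every E18.5 value lay above every E16.5 value, with from 160 to 210 reads per library against from 53 to 110. Ebf1 rose from 0.968 ± 0.321 to 3.73 ± 0.502 TPM (SD, n = 3), with a log2 fold change of 1.27 (SE 0.26, limma adjusted p = 0.0169). Unlike the other 8 genes, it was highest in replicate C of E18.5. Its call did not hold when E18.5 replicate A (limma adjusted p = 0.0539) or replicate B (0.0545) was left out, and was kept in the other 10 of 12 settings.

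Ebf1 is also expressed by mesenchymal cells. A list of 10 mesenchyme markers, led by Col1a1 and Col3a1, summed to 287, 149 and 213 TPM in E16.5 replicates A, B and C and to 278, 452 and 684 TPM in those of E18.5, and 3 of its 9 tested genes were called higher, against 26.0% of all genes, with 1 of 9 under median-of-ratios scaling, under quantile normalization or without E18.5 replicate B. The mesenchyme sum, like Ebf1, was highest in replicate C and lowest in replicate A of E18.5, and highest in replicate A of E16.5. Unlike Ebf1, it was lowest in replicate B of E16.5 and overlapped between the stages. Its part in the rise of Ebf1 was not tested.

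Pax5 (ENSMUSG00000014030.15, reverse strand of chr4:44524757-44710487) had the lowest level of the 9 genes at E16.5, with 0.224, 0.768 and 0.397 TPM, and stood at 2.43, 3.16 and 2.39 TPM at E18.5. The stages did not overlap, with from 17 to 53 reads per library at E16.5 and from 86 to 147 at E18.5. Pax5 rose from 0.463 ± 0.278 to 2.66 ± 0.434 TPM (SD, n = 3), with a log2 fold change of 1.33 (SE 0.29, limma adjusted p = 0.0191), a scale that understates the change of low genes. Summed over the libraries of a stage and scaled to depth, its reads had a ratio of 5.29 between the stages, with a 95% exact interval from 4.23 to 6.68, and those of Ebf1 a ratio of 3.38 (from 2.90 to 3.96). Both intervals cover counting error only. The call of Pax5 was lost in 4 of 12 other settings, namely under quantile normalization and without replicate A of E16.5, replicate A of E18.5 or replicate B of E18.5, with an adjusted p of at most 0.0669. Up to 7.18% of its exon sequence is shared with a gene on the opposite strand.

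Of 15 other transcription factors of the B lineage, 13 were tested, and 4 were called higher and 2 lower, with a median log2 fold change of 0.62. The share called higher was near the 26.0% of all genes, of which 1172 of 22452 were called lower. Pou2af1, which encodes a coactivator of octamer-binding POU factors in B cells, stood at 3.25, 3.22 and 1.52 TPM at E16.5 and at 7.57, 10.3 and 8.02 TPM at E18.5, so the stages did not overlap. Pou2af1 rose with a log2 fold change of 1.42 (SE 0.28, limma adjusted p = 0.0151) and was the only factor of the list called higher under median-of-ratios scaling. Spib, an ETS factor of lymphoid cells, rose from 0.253 ± 0.202 to 2.01 ± 0.728 TPM (1.25, limma adjusted p = 0.0314). Its value in E16.5 replicate C rested on 1 read, and its call was lost in 7 of 10 other settings. Bach2, a repressor in B cells, rose from 6.61 ± 0.165 to 12.7 ± 0.931 TPM (0.84, limma adjusted p = 0.0139), a call lost in 3 of 13 other settings. Tcf3, which is expressed in many tissues, stood at 93.9 ± 23.7 and 158 ± 23 TPM (SD, n = 3, log2 fold change 0.77, limma adjusted p = 0.0353). Runx1 and Mef2c, which also act in megakaryocytes, fell by 2.11 and 1.94 on the log2 scale (limma adjusted p = 0.0144 and 0.0210), in the same direction as the megakaryocyte list given above (the call of Mef2c was lost in 3 of 13 other settings), and the part of those transcripts was not tested. Irf4 and Lef1 were under the filter, with non-overlapping stages.

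**Figure D4:**
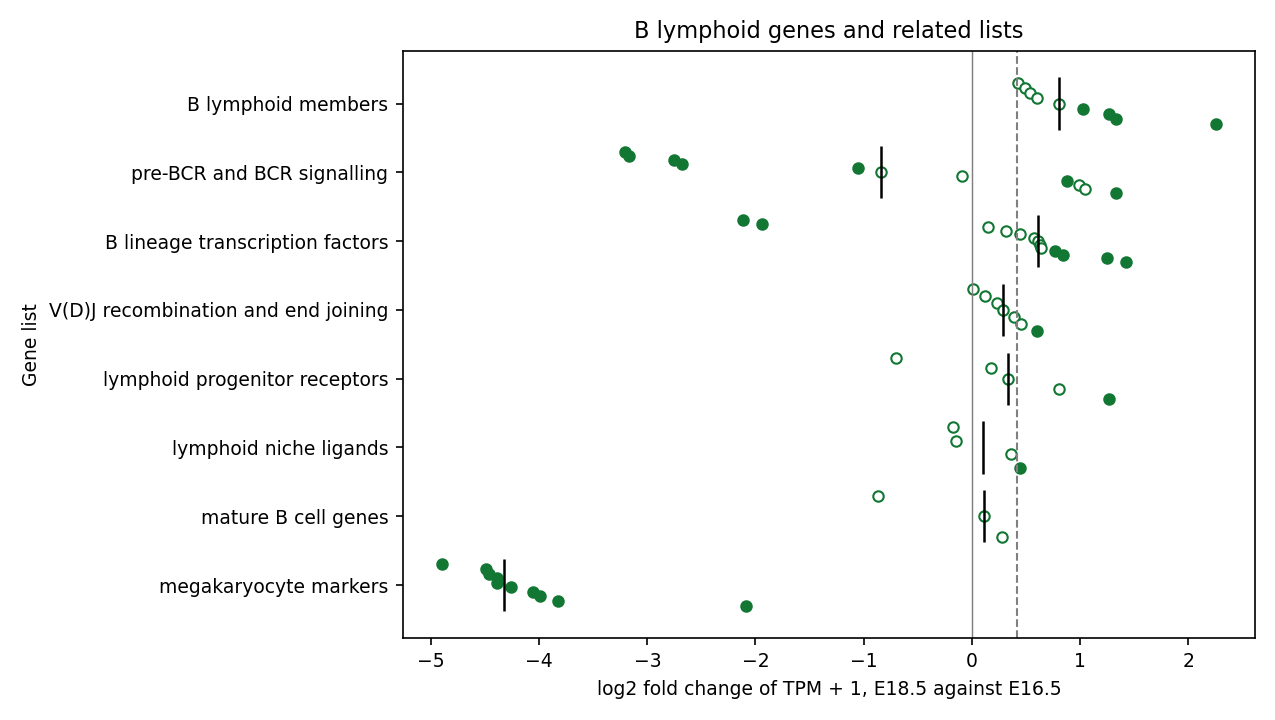
Log2 fold change of TPM + 1 at E18.5 against E16.5 for the tested genes of each list, one point per gene (filled where the limma adjusted p was under 0.05), with a bar at the list's median and a dashed line at the median of all genes tested (0.42). The 9 B lymphoid genes lay between 0.43 and 2.26, whereas the signalling list reached down to -3.20 and all megakaryocyte markers lay under -2.

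Receptors of lymphoid progenitors and the ligands that support them in the liver were examined as well. Il7r, the receptor for the B progenitor cytokine IL-7, stood at 0.473, 0.240 and 0.664 TPM at E16.5 and at 1.5, 4.70 and 2.0 TPM at E18.5, so the stages did not overlap. It was the only one of 5 tested receptor genes called, against 31.2% of all genes. Its log2 fold change was 1.27 (SE 0.38, limma adjusted p = 0.0443), and it was called in 1 of 10 other settings. Among 4 tested ligand genes, Cxcl12 alone was called, with 56.9 ± 2.70 and 78.1 ± 10.1 TPM (SD, n = 3, log2 fold change 0.44, limma adjusted p = 0.0367), and its log2 fold change under median-of-ratios scaling was -0.02. Il7 itself stood at 2.29 ± 0.605 and 1.90 ± 0.269 TPM (-0.17, limma adjusted p = 0.626), and Kitl at 26.6 ± 1.21 and 35.6 ± 10.8 TPM (0.36, adjusted p = 0.249).

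Neither genes of more mature B cells nor those of the antigens used for depletion were called. Of 7 mature B cell genes 3 were tested and 0 called (1 was called lower under median-of-ratios scaling). Under the filter, Ms4a1, which encodes CD20, had 0.119 ± 0.107 and 0.303 ± 0.340 TPM (SD, n = 3). Its stages overlapped, as did those of Tnfrsf13c (means 0.295 and 0.291 TPM). Cxcr5 (means 0.210 and 1.35 TPM) and Cr2 (0.393 and 0.830 TPM), also untested, had all E18.5 values above all E16.5 values. The tested Cd37 (12.0 and 6.02 TPM) had all of them below. Ptprc, the gene from which the B220 antigen is spliced, stood at 0.815, 0.539 and 0.808 TPM at E16.5 and at 1.11, 2.13 and 0.847 TPM at E18.5. Its E18.5 values were all above the E16.5 values, by a narrow margin in replicate C, and its log2 fold change of 0.42 (SE 0.32) was close to the median of all genes (limma adjusted p = 0.332). Neither of the 2 tested genes among 6 depletion antigens was called, the other being Ly6g (0.29, adjusted p = 0.686).

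The order of the libraries within E18.5 was not the same for all 9 genes. Replicate B was the highest library for 6 of the 9 genes and the lowest for 0, replicate A was highest for Vpreb3 and Igll1, and replicate C for Ebf1. At E16.5 no replicate stood out, with replicates A, B and C highest for 4, 3 and 2 genes. Replicate B was also the highest E18.5 library for the sums of granulocyte, macrophage, erythroid and megakaryocyte markers. It was likewise highest for the cholangiocyte sum (12474, 14785 and 8683 TPM in A, B and C). It was lowest for the sums of T and NK cells (13.4, 11.3 and 19.6 TPM) and of hepatoblasts (74107, 37116 and 86904 TPM). Its median-of-ratios scaling factor was the largest of E18.5 (1.293, against 1.157 in A and 1.127 in C). Granulocyte and mast cell markers, led by Mpo and S100a8, summed to between 24.2 and 55.1 TPM at E16.5 and to 74.2, 262 and 80.7 TPM in E18.5 replicates A, B and C. Of the 9 tested, 5 were called higher (S100a8, S100a9, Ngp, Camp and Ltf), against 26.0% of all genes. Without replicate B or under median-of-ratios scaling 0 were called, and the list's median log2 fold change was 1.08 in both cases, against 1.43. Without replicate B of E18.5, 1 of 8 tested B lymphoid genes was called (Ighm), against 13.1% of all genes, and the E18.5 sums of the 9 genes in replicates A and C, 37.8 and 33.7 TPM, lay above every E16.5 sum.

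**Figure D5:**
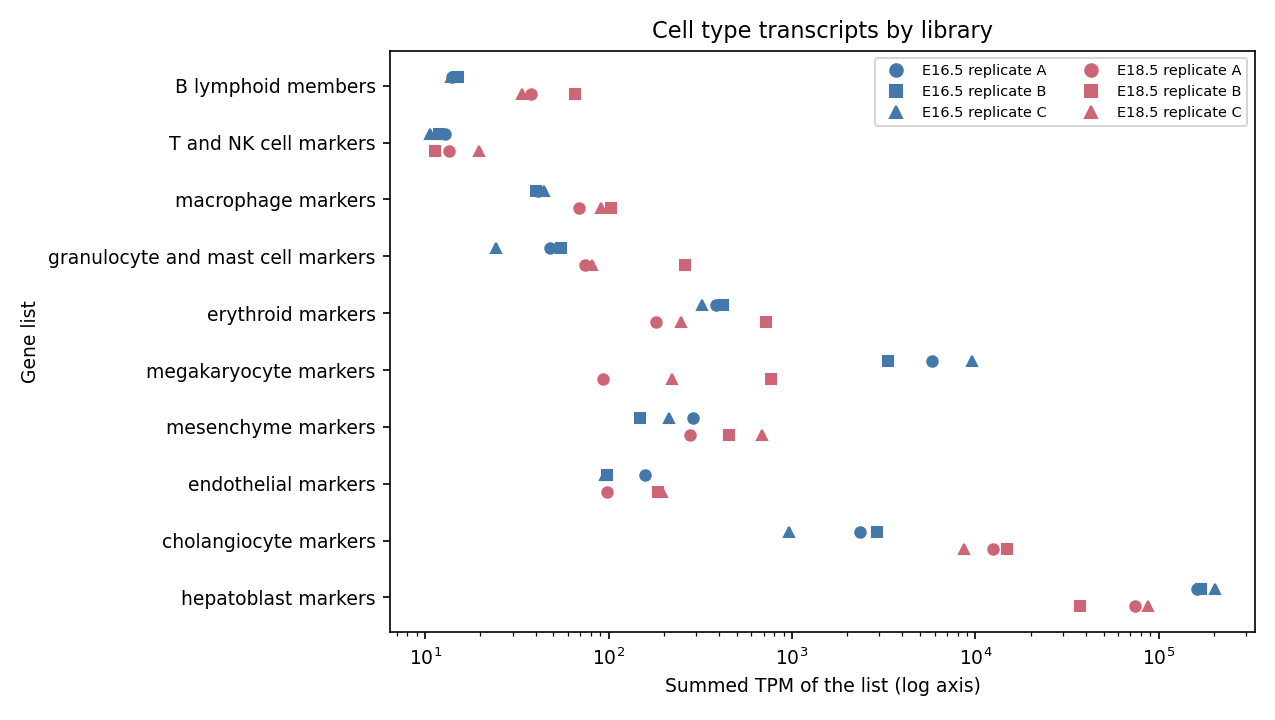
Summed TPM (log axis) of the 9 B lymphoid genes and of 9 cell type marker lists in each library (circles, squares and triangles are replicates A, B and C; blue E16.5, red E18.5). The B lymphoid, macrophage, granulocyte and cholangiocyte sums were higher in every E18.5 library, and the megakaryocyte and hepatoblast sums were lower.

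The other marker lists gave these values. Macrophage markers, led by Csf1r and Cd68, summed to between 40.0 and 44.5 TPM and then to between 68.8 and 104 TPM, with 2 of 8 tested genes called higher (Csf1r and Clec4f), near the 26.0% of all genes, and 0 under median-of-ratios scaling or quantile normalization. Erythroid markers, led by Hba-a1 and Tfrc, summed to between 324 and 422 TPM and then to between 181 and 721 TPM, highest in replicate B. Hematopoietic stem and progenitor markers, led by Tal1 and Lmo2, went from between 115 and 224 TPM to between 44.1 and 73.8 TPM. Of the 7 tested, 3 were called lower (Hlf, Tal1 and Lmo2), against 1172 of all 22452 genes. Only 1 had a log2 fold change above 0 (Cd34, 0.64, limma adjusted p = 0.230). As for the megakaryocyte markers, the sum was highest in replicate C at E16.5 and in replicate B at E18.5, and their part in it was not tested. T and NK cell markers, led by Tcf7 and Lck, summed to between 10.6 and 12.9 TPM at E16.5 and to between 11.3 and 19.6 TPM at E18.5, so the stages overlapped, and Ncr1 alone was called, lower at E18.5. Endothelial markers, led by Stab2 and Cdh5, summed to between 96.2 and 157 TPM and then to between 97.5 and 194 TPM. The part of these cells in the values of the 9 genes was not tested.

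Among 13824 protein-coding genes outside the lists, those whose log2(TPM + 1) over the 6 libraries was among the most like the mean of the 9 genes included Stk3 (Pearson r = 0.9993), Ttc30a2 (0.9976), Sh3glb1 (0.9970) and Ankra2 (0.9952). Stk3, a kinase of the Hippo pathway, stood at 26.1, 26.3 and 25.7 TPM at E16.5 and at 33.5, 41.0 and 33.5 TPM at E18.5, highest in replicate B as were Ighm and Rag1. With 6 libraries in 2 stages such values are a description, and 818 of the 13824 genes had an r of at least 0.95.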

How the data were processed

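RNA was measured in 6 libraries, grouped by the stage in the sample labels. Per the methods and the submitters' processing notes, the authors checked reads with FastQC 0.11.7, trimmed them, aligned them to GRCm38 with HISAT2 2.1.0, obtained gene counts with HTSeq 0.5.4p3 and deposited TPM, the only unit in the data; 0 columns were left unused. TPM divides by each library's own total, so a few abundant transcripts can shift all others. Symbols, places and lengths came from GENCODE vM21 (52403 of 52550 identifiers matched), and RefSeq gave the promoters on GRCm38. TPM multiplied by exon length and divided by the worth of 1 read gave the reads (whole within 0.01). Annotated lengths of Vpreb1, Vpreb2 and Il7r differed, so theirs were not recovered. No library was a copy of another of its stage (chi-square per degree of freedom at least 15.1).

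The test between stages was that of limma 3.58.1 (lmFit and trended eBayes, R 4.3.3) on log2(TPM + 1), with a mean of at least 1 TPM, Benjamini-Hochberg adjustment over all genes and a threshold of 0.05. Exact permutation tests were computed in R, and exact intervals (Clopper-Pearson, 95%) in Python 3.11.15. The steps were tested on data simulated with a dispersion of 0.03. There 80.6% of 4-fold changes and 18% of 2-fold changes were called, with 8 false calls among 20249 genes. A gene that was not called may thus still have changed by 2-fold. Both simulated stages shared a base profile apart from 200 changed genes. The false calls therefore do not cover a shift of the whole table such as the one found between these stages. The 13 alternatives were a pseudocount of 0.1, no filter, a minimum mean of 5 TPM, scaling by the median of ratios, quantile normalization, the replicate block, limma voom on recovered reads and leaving out each library. The 9 genes and the lists were chosen with earlier results of these data known. Values are given for the 9 genes, for called genes of the pathway lists (or the highest where none was called), for the sums and leading genes of the marker lists, and for genes among the 5 most like the 9. Some listed genes are left out of the text. Ms4a1, Tnfrsf13c, Cxcr5, Cr2, Cd37, Cd22, Cd72, Blnk, Bank1, Blk, Fcrla, Vpreb2 and Ighd were added after their values were seen. So were the Iglc genes, Rag2, Dntt, Irf4, Lef1, Il7, Kitl, Cd34 and the called genes of marker lists.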

Additional observations from a re-analysis of the deposited data

How the results depend on the processing

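All 9 B lymphoid genes were higher at E18.5 under each alternative that tested them, except Cd79b, at -0.0058 (log2) under quantile normalization. Ighm was called in 13 of 13 alternatives, Ebf1 in 10 of 12, Pax5 in 8 of 12, Vpreb3 in 3 of 13 and the other 5 in none. Of the 9 genes, 2 were called under quantile normalization, and 2 with a mean of at least 5 TPM, where only Ighm and Vpreb3 were tested. Leaving out 1 library gave from 1 to 4 calls, with 1 without E18.5 replicate A, 1 without E18.5 replicate B and 2 without E16.5 replicate A. Over all genes, 7000 calls became 4282 with no filter (43310 genes tested), 3795 under median-of-ratios scaling and 3796 under quantile normalization (50.5% of them higher), and from 1472 (without E18.5 replicate A) to 5686 when 1 library was left out, with 2917 without E18.5 replicate B, 4376 without E16.5 replicate A and 4082 without E16.5 replicate C. Deviations from the stage means had r = -0.0425, 0.0814 and 0.140 between libraries with the same letter (A, B and C). Between libraries with unlike letters, r lay between -0.146 and 0.0842. With 3 libraries per stage, such values cannot decide whether the letters pair the samples. With the letters as a replicate block, 7314 genes and 3 of the 9 were called. Where a call changed, the cause was not tested. The 8 genes with recovered reads had between 3 and 296 reads in a library, and a difference under the shift between scalings could not be told from 0.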
